A study of Caenorhabditis elegans with 2 samples.

Results

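The regions described here are 240 ZFP-3 binding sites in the gaps between tandem genes, that is, between 2 protein-coding genes on the same strand, in Caenorhabditis elegans. ZFP-3 is a zinc finger protein, and its binding was mapped by chromatin immunoprecipitation and sequencing (ChIP-seq) with an antibody against GFP. The animals were whole L4 larvae aged 48 h of strain RW12271, whose zfp-3 gene on chromosome X had been fused by CRISPR insertion to TY1, EGFP and 3xFLAG, and they had been synchronized as starved L1 larvae after bleaching. All libraries came from this 1 group, with 2 biological replicates and no untagged or untreated animals among the samples. A control experiment that the labels mention was not analysed here. Whole animals mix all tissues, so a peak does not say in which cells the tagged protein was bound.

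A site was a member when its summit, the point of highest signal in the peak, met 4 conditions. The summit lay in no annotated gene, was over 100 bp from any transfer RNA (tRNA) gene, was within 1000 bp upstream of the 5′ end of a protein-coding gene, and had its nearest protein-coding genes on the left and the right on the same strand. The authors' conservative list draws on both libraries, and 240 of its 2010 peaks met the rule (11.9%). The rule used positions only, so the strength, the presence in each library and the sequence of these peaks were not part of the choice. Of the other summits, 241 lay in promoters between divergent genes, 118 between convergent genes, 261 elsewhere between genes, 946 inside genes and 204 at tRNA genes.

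A tandem gap lies between the 3′ end of one gene and the 5′ end of the next, and can hold the promoter of the downstream gene, whereas a divergent gap lies between 2 5′ ends. C. elegans genes lie close together, and many tandem genes share an operon, in which transcription runs through the gap, the gap need hold no promoter, and the downstream gene is cut out of a longer transcript and receives a spliced leader. Many other messages receive a spliced leader as well, so the annotated 5′ end need not be where transcription starts. Operon membership was not analysed here.

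The 4 sequences below are the reference sequence (RefSeq, WBcel235, the assembly of ce11) around the summit, 50 bp to either side, at 4 of the 5 strongest tandem promoter peaks. Each is written 5′ to 3′ in the direction of the downstream gene that names it. Capitals mark the 5 6-base words that are spelled out with their shares further on, on either strand. The windows are chrIII:3867522-3867622 on the + strand for rpl-3, chrII:10563534-10563634 on the - strand for cdc-48.1, chrV:6278376-6278476 on the + strand for fil-2 and chrV:9546954-9547054 on the + strand for his-37.
rpl-3: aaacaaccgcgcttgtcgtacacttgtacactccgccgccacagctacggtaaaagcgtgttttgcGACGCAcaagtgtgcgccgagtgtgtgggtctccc
cdc-48.1: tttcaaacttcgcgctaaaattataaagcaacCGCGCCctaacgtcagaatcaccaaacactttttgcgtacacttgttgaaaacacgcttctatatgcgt
fil-2: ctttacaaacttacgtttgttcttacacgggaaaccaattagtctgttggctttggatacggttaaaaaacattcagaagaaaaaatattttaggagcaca
his-37: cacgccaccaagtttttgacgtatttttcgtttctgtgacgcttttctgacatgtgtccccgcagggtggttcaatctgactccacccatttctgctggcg

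The next 4 are from the strongest tandem promoter peaks whose window holds ACGCAG. They show how the words lie together, and this set was picked after the words were known. The windows are chrIV:17249861-17249961 on the + strand for eelo-2, chrV:18967801-18967901 on the - strand for Y39B6A.43, chrII:1320580-1320680 on the + strand for vig-1 and chrIII:3460210-3460310 on the + strand for C34C12.8.
eelo-2: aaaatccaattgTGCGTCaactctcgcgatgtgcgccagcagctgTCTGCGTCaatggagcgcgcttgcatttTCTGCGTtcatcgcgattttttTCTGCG
Y39B6A.43: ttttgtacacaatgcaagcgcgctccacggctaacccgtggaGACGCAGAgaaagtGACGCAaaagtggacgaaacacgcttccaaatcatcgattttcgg
vig-1: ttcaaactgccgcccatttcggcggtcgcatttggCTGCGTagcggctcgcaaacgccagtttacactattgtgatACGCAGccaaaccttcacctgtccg
C34C12.8: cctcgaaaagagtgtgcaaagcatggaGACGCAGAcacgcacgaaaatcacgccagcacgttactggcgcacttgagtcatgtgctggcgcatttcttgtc

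The tandem promoter peaks covered a wide range of strength. Their signal, the authors' deposited strength of a peak on a scale that is not given, ranged from 3.06 to 778 with a median of 91.9 and a middle range of 72.3 to 142 (25th to 75th percentile). The median of the 1770 other peaks was 81.3, a ratio of 1.13. The ratio was 1.05 in the thresholded list of replicate 1 (143 of its 931 peaks were tandem promoter peaks) and 1.21 in that of replicate 2 (112 of 933). Divergent promoter peaks had a median of 94.9, convergent ones 93.1, those at tRNA genes 91.4, those elsewhere between genes 85.6 and those inside genes 74.3. The tandem class thus lay beside the other intergenic gene-end classes and above the peaks inside genes, while its 75th percentile of 142 was the highest of the 6 classes. Per megabase of sequence of each class, tandem promoters held 36.7 summits, divergent promoters 47.2, convergent gaps 35.1 and gene bodies 14.2. Sequence elsewhere between genes held 14.3, and the far smaller sequence at tRNA genes held 1238. Read depth per library is unknown from peak lists, and peaks of a list are not replicates, so no p-value is given for these differences. The exact 95% binomial intervals below cover counting error only.

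**Figure D1:**
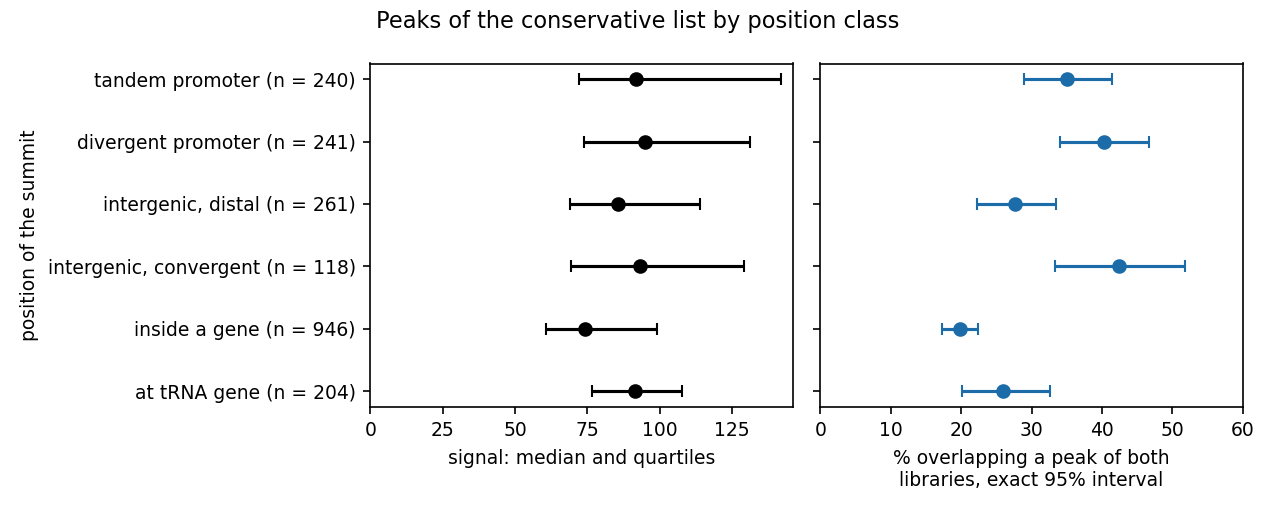
Left, the deposited signal (median as a point, 25th to 75th percentile as a bar) of the peaks of the conservative list in 6 position classes. Right, the percent of each class that overlapped a thresholded peak of both libraries, with its exact 95% binomial interval; tandem promoter peaks were at 35% and peaks inside genes at 19.8%.

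Of the 240 tandem promoter peaks, 84 (35%, exact 95% interval 29.0 to 41.4%) overlapped a thresholded peak of both single libraries by at least 1 bp, against 27.0% of all peaks of the list. A thresholded peak of replicate 1 was overlapped by 125 of them (52.1%, against 40.2% of all peaks) and one of replicate 2 by 108 (45%, against 41.1%). Neither list held a peak at 91 (37.9%). This share was 34.4% of divergent promoter peaks, 35.6% of convergent ones and 40.7% of those at tRNA genes. It was 44.4% of peaks elsewhere between genes and 53.2% of those inside genes. The lists share their reads, so these shares describe which peaks also stood out in a library alone. The share followed strength. The 503 strongest peaks of the list held 77 tandem promoter peaks, of which 87.0% were in both libraries (82.7% of all 503). The next 502 held 67, of which 19.4% were in both (15.9% of all 502). In the following 502 and the weakest 503 peaks the tandem shares were 3.39% and 5.41%, against 2.59% and 6.76% of all peaks there. At like strength the tandem promoter peaks and the whole list therefore lay close together, and 32.1% of the tandem promoter peaks were among the 503 strongest.

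Each library's longer ranked list also gave a value at most of these sites. A peak covered the summit in both libraries at 221 of 240 sites, and 11 sites lacked a value in replicate 1 and 11 in replicate 2. At these sites the signal had a median of 52.3 in replicate 1 (27.8 to 468) and 44.5 in replicate 2 (25.4 to 337), and 135 sites were higher in replicate 1. The ratio of replicate 1 to replicate 2 had a median of 1.10 (25th to 75th percentile 0.916 to 1.35). Because the scale is not given, a ratio between libraries describes the lists and not an amount bound. Spearman's rho between the libraries was 0.70 over the 221 sites and 0.54 over 1781 peaks of the whole list with both values. These points share the 2 libraries and their selection for agreement between them. The summits of the 2 libraries lay a median of 22 bp apart, and at 164 sites (74.2%) they were within 50 bp.

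**Figure D2:**
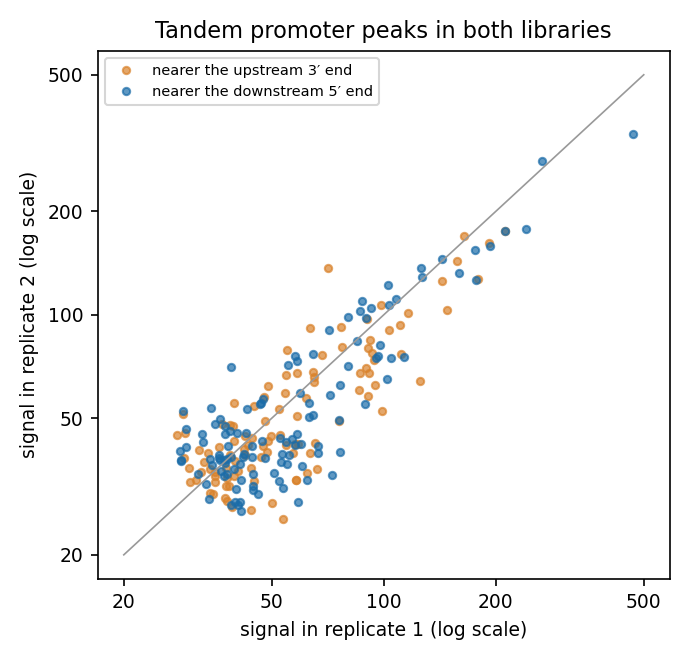
Signal of the tandem promoter peaks in replicate 1 (x axis, log scale) and replicate 2 (y axis, log scale), each point a site with a value in both libraries; the line marks equal values. The 221 sites spread from 27.8 to 468 in replicate 1, and the 2 highest, rpl-3 and cdc-48.1, are nearer the downstream 5′ end.

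Named by their downstream gene, the strongest tandem promoter sites were those of rpl-3, cdc-48.1, fil-2, ego-1 and his-37, genes of unlike functions. Of the 20 strongest summits, 8 were nearer the upstream 3′ end, among them those of fil-2, ego-1, ikke-1, eelo-2 and vig-1. rpl-3, a gene for a large-subunit ribosomal protein, had a signal of 778 in the series list, with 468 in replicate 1 and 337 in replicate 2. Its summit lay 282 bp upstream of the 5′ end and 474 bp past acs-19. cdc-48.1, which encodes the AAA ATPase that extracts ubiquitinated proteins for degradation, had 554 in the series list, 266 in replicate 1 and 281 in replicate 2. Both sites were above all other tandem promoter sites in each library. fil-2, named as a fasting-induced lipase, had 460.0, with 212 in replicate 1 and 176 in replicate 2. Its summit lay 605 bp from the 5′ end and 266 bp past F31F7.1. ego-1, whose RNA-dependent RNA polymerase acts in germ line RNA interference, had 425, with 192 in replicate 1 and 162 in replicate 2. The ego-1 summit lay 444 bp from the 5′ end and 196 bp past F26A3.4. his-37, a histone H4 gene, had 417, with 240.5 in replicate 1 and 178 in replicate 2, and its summit lay 163 bp past C50F4.6 in a gap of 263 bp.

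The next sites had series signals from 316 to 361. nspc-17, a member of a family of nematode-specific peptides, had 361, with 193 in replicate 1 and 158 in replicate 2. It lies beside its relative nspc-18, and reads from near-identical copies make its value uncertain, since their assignment is not stated. C32D5.8 had 353, with 164 in replicate 1 and 170.1 in replicate 2. Its summit lay 208 bp past the 3′ end of lgg-1, which encodes the autophagy protein related to yeast Atg8, and 788 bp from C32D5.8. The promoter side of lgg-1 carried 2 further members, with signals of 163 and 72.3 at 187 and 891 bp from its 5′ end, so this gene had tandem promoter summits beyond both of its ends. hsp-1, the constitutive Hsp70 chaperone, had 343, with 176 in replicate 1 and 154 in replicate 2. tos-1, a gene known as a splicing target, had 316, with 177 in replicate 1 and 126 in replicate 2.

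egg-5 stood apart among the strong sites. It encodes an inactive phosphatase of the egg-to-embryo transition, and its series signal of 313 went with 89.6 in replicate 1 and 69.9 in replicate 2. These were the lowest single-library values of the 20 strongest sites. The summit lay 770 bp from egg-5 but 44 bp from sls-2.4, a spliced leader RNA gene annotated as snRNA.

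Among the rest of the 20 strongest, ikke-1, a relative of the IKK epsilon kinase, had 311, with 158 in replicate 1 and 144 in replicate 2. eelo-2 had 308, with 179 in replicate 1 and 127 in replicate 2. ufbp-1, which encodes a protein of UFM1 conjugation, had 277, with 148 in replicate 1 and 103 in replicate 2. Its summit was 130 bp past hsp-110, an Hsp110 chaperone gene, and 173 bp before ufbp-1. vig-1, which encodes a component of the RNA-induced silencing complex, had 258, with 143 in replicate 1 and 125 in replicate 2. pcn-1, the gene for the replication clamp PCNA, had 216, with 108 in replicate 1 and 111 in replicate 2. These sites and dpf-3, a dipeptidyl peptidase gene (322), fbxb-72 (289), Y39B6A.43 (285), fbxb-58 (253) and F48A11.4 (221) complete the 20. F48A11.4 follows ubxn-3, which encodes a cofactor of CDC-48, with the summit 266 bp past its 3′ end. All 20 sites overlapped a thresholded peak of both libraries, and 13 were higher in replicate 1. They reached high in the whole list, where 5 of the 20 strongest and 18 of the 100 strongest peaks were tandem promoter peaks.

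**Figure D3:**
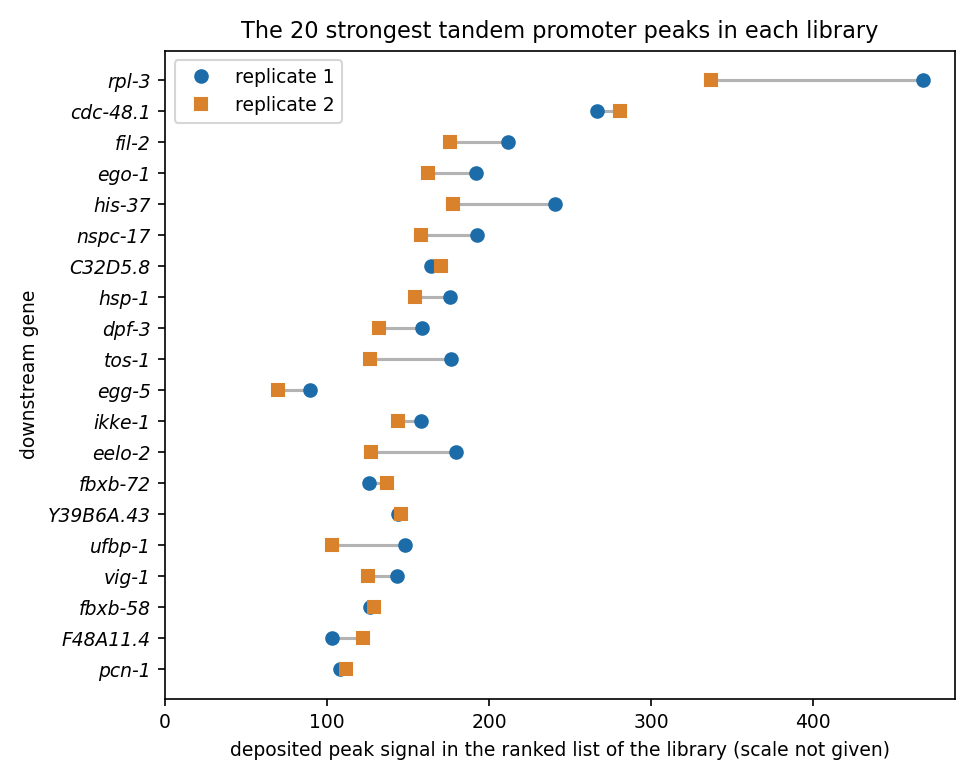
Signal of the 20 strongest tandem promoter peaks, named by their downstream gene and ordered by series signal from the top, in the ranked list of replicate 1 (circles) and replicate 2 (squares). rpl-3 lies at 468 in replicate 1 and 337 in replicate 2, while egg-5 lies below its neighbours at 89.6 and 69.9.

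Within the gaps, many summits lay just past the upstream gene, although 124 of the 240 were nearer the downstream one. The distance to the 5′ end of the downstream gene had a median of 287 bp (25th to 75th percentile 162 to 492), and the distance past the 3′ end of the upstream gene had a median of 242 bp (25th to 75th percentile 146.5 to 780). The gap itself had a median of 664 bp and ranged from 54 to 15369 bp. In all, 116 of the 240 summits (48.3%, exact 95% interval 41.9 to 54.9%) were nearer the upstream 3′ end than the downstream 5′ end, against 24.4% of the bases that meet the rule. In gaps under 1600 bp, where both ends can come near a summit, 115 of 194 summits (59.3%) were nearer the 3′ end, against 45.2% of the bases. The share differed with the gap. It was 50% (7 of 14) for gaps up to 200 bp and 47.1% (24 of 51) above that and up to 400 bp. It was 71.1% (54 of 76) for the next up to 800 bp and 56.6% (30 of 53) up to 1600 bp.

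Counted per 100 kb of bases that meet the rule, summits were densest shortly after the upstream gene. Past its 3′ end the second bin of 100 bp, which ends at 200 bp, held 14.2 summits per 100 kb (62 summits), and the bin that ends at 300 bp held 12.0 (47 summits). The first 100 bp held 6.87, the bin that ends at 400 bp held 3.39, and bases more than 1000 bp away held 1.53. Measured from the downstream 5′ end, the density was at most 5.70 per 100 kb (the bin that ends at 300 bp, 44 summits), with 5.47 in the bin that ends at 200 bp and 3.59 in the first 100 bp. Short gaps enter both counts. Gaps over 1600 bp add bases to the bins from the 5′ end but none just past the upstream gene, so the 2 profiles rest on unlike gaps. In gaps of 601 to 1000 bp, where the end zones of 300 bp do not meet and every base satisfies the distance limit, 36 of 57 summits lay within 300 bp of the upstream 3′ end, 12 lay within 300 bp of the downstream 5′ end and 9 lay between. These are 7.85, 2.60 and 3.11 summits per 100 kb. Convergent gaps, which have annotated 3′ ends on both sides, held 80 of their 118 summits within 300 bp of a 3′ end, or 7.40 per 100 kb, and 38 further away, or 1.67 per 100 kb. The zones of 300 bp were chosen after the distances had been seen.

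**Figure D4:**
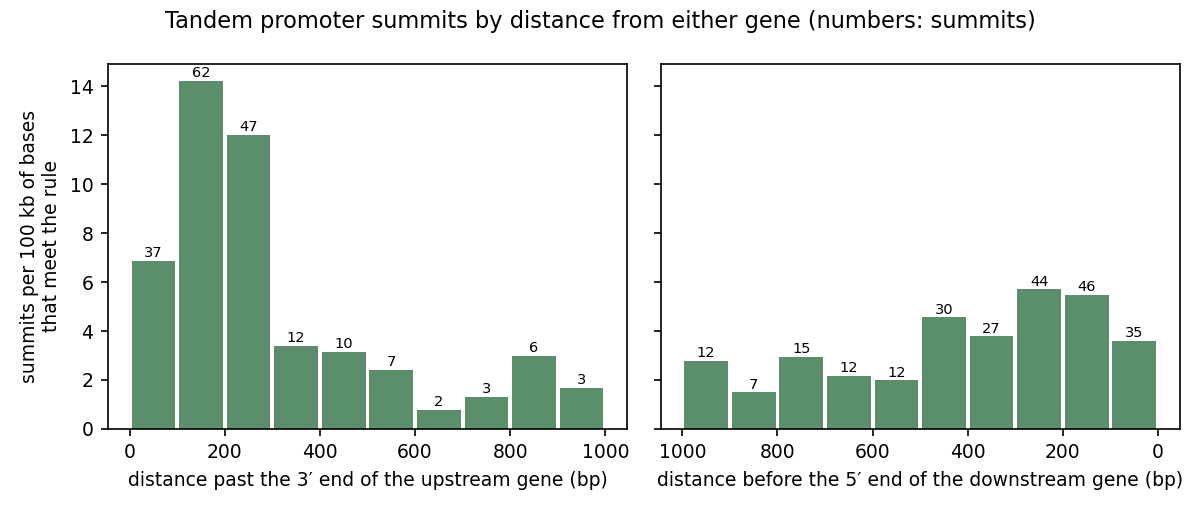
Tandem promoter summits per 100 kb of bases that meet the rule, in bins of 100 bp from the 3′ end of the upstream gene (left) and from the 5′ end of the downstream gene (right, running towards the gene); the number over each bar is its count of summits. The bars between 100 and 300 bp past the upstream gene reach 14.2 and 12.0, and no bar on the right exceeds 5.70. The bars on the right also take bases of gaps over 1600 bp, which the left bars up to 300 bp do not.

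Individual sites show the position past an upstream gene. adss-1, a purine synthesis gene, had a signal of 176 at a summit 58 bp past hsp-6, the mitochondrial Hsp70 gene, and 643 bp from adss-1 itself. T21B10.3 had 175 at a summit 150 bp past enol-1, which encodes the glycolytic enzyme enolase. ubl-5, which encodes a ubiquitin-like protein of the mitochondrial stress response, had 136 at a summit 229 bp past vha-10, a vacuolar ATPase gene. These 3 were chosen after their values were seen and stand for no group of genes. The 116 summits nearer the upstream 3′ end had a median signal of 93.0 and the 124 nearer the downstream 5′ end 89.4, and 36.2% and 33.9% were in both libraries. Strength and presence in the libraries thus lay close together on either side.

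Under this rule the share of genes with a site differed with the length of the gap. A protein-coding gene was eligible when its nearest protein-coding neighbour on the 5′ side was on the same strand, with a gap between them. This held for 10157 of 19973. Noncoding genes and tRNA genes in the gap were not taken into account. Of these, 231 (2.27%) had a member, 9 of them with 2. The share was 0.749% for gaps of up to 200 bp, 4.22% above that and up to 400 bp, 4.13% up to 800 bp, 2.43% up to 1600 bp and 1.36% beyond. A short gap offers fewer bases, and a long one lies in part beyond the limit of 1000 bp. In gaps over 1600 bp the rule leaves out the bases just past the upstream gene, and 1 of 46 members was nearer that end. The share for such gaps is thus set in part by the rule. Of the 240 peak intervals, 121 reached into a gene although their summits did not. By chromosome the share was 3.51% on I, 2.46% on II, 2.95% on III, 2.32% on IV, 1.47% on V and 1.67% on X. The downstream gene was on the + strand in 118 cases and on the - strand in 122.

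At the limit of the rule, the members farthest from their gene were ZC443.2 (1000 bp, signal 36.7), pnk-1 (987 bp, 90.0) and cul-6 (986 bp, 85.7). The summits just outside were at hpd-1 (1009 bp, 19.1), oac-50 (1014 bp, 27.1) and F18E3.12 (1016 bp, 67.7).

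The gene lists were made by symbol, so each can leave out genes of the same function that carry other symbols. Genes for cytosolic ribosomal proteins were the list with the most members. Of 24 eligible genes 8 had a tandem promoter site (33.3%), against 2.27% of all eligible genes. After rpl-3 came rpl-41.2 with a signal of 156 (71.1 in replicate 1 and 90.6 in replicate 2) and rpl-11.2 with 105 (48.8 in replicate 1 and 62.1 in replicate 2). rpl-29, rpl-6, rps-4, rpl-14 and rps-11 had series signals from 72.0 to 100.3. The 8 summits thus reached from the strongest of all members to below the median of the class. In the thresholded list of replicate 1 alone 2 of the 24 genes had a site, and in that of replicate 2 alone 4 had. Mitochondrial ribosomal proteins had 1 of 33, mrpl-32, with a signal of 65.8.

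Other genes of RNA and protein handling had small counts. The splicing list had 3 of 8: uaf-1, which encodes the large subunit of the splice site factor U2AF (78.8), rsp-6, an SR protein gene (72.0), and snr-4, a core spliceosome gene (6.58). The snr-4 summit lay 618 bp from snr-4 and 80 bp from an snRNA gene. In the thresholded list of either library alone, 0 of the 8 had a summit that met the rule. The snr-4 peak still overlapped a thresholded peak of replicate 1. The members ddx-23 (97.3) and lsm-6 (105) carry symbols outside the splicing list. Translation factors had 2 of 17, eif-3.C (192) and eef-1A.2 (81.6), and aminoacyl tRNA synthetases 1 of 13, fars-3 (54.2). Chaperones had 2 of 21, hsp-1 (343) and the J-domain gene dnj-9 (214). The proteasome list had 1 of 10, rpn-11, which encodes the deubiquitinating subunit of the lid (184). The respiratory chain list had 2 of 17, cox-6A (146) and cyc-1 (106). It takes symbols such as nuo-, cox-, cyc- and atp-, so the member nduf-11 (88.9) is not in it. The single-library lists, whose own summits were placed by the same rule, changed several of these counts. A count of 0 there does not mean that no peak was found. The rpn-11 and cox-6A peaks overlapped a thresholded peak of both libraries, and those of fars-3 and mrpl-32 overlapped one of neither. The thresholded list of replicate 1 held 3 respiratory chain genes and 2 translation factors, and that of replicate 2 held 0 and 1. Either of these lists held 0 proteasome, 0 synthetase and 0 mitochondrial ribosomal protein genes, and each held 2 chaperones.

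Replication and cell cycle genes had 2 of 13, pcn-1 (216) and mcm-4, a subunit of the replicative helicase (113). Chromatin regulators had 2 of 26, set-4 (97.6) and set-2, which encodes a histone H3 lysine methyltransferase (60.4), but 0 in the thresholded list of either library and 0 in the other thresholded list of the series. Histones had 1 of 5, his-37 (417), and trafficking genes 2 of 33, sec-3 (100.8) and vps-37 (70.5). The replication and histone counts were the same in each single-library list, and the trafficking count was 1 in that of replicate 1 and 2 in that of replicate 2. Over these small lists a single gene moves the share by several points.

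Among the larger families, chemoreceptors had 3 of 754 (0.398%), srg-45, srz-62 and sru-35, with signals from 51.9 to 79.9. C-type lectins had 0 of 128 and collagens 0 of 72, with 1 collagen gene in the thresholded list of replicate 1. Homeobox genes had 0 of 34, zinc finger symbols 0 of 13, vacuolar ATPase genes 0 of 10 and major sperm proteins 0 of 8. In lists this short a share of 2.27% would come to less than 1 gene, so their counts of 0 cannot tell them from all eligible genes, and the other thresholded list of the series held 1 vacuolar ATPase gene. Nuclear hormone receptors had 2 of 157, nhr-49, a regulator of fat metabolism (99.7), and nhr-2 (56.2). Detoxification genes had 1 of 92, ugt-49 (69.7). The F-box and BTB list (symbols fbxa-, fbxb-, fbxc-, bath-, math- and btb-) had 4 of 224 (1.79%), near the share of all eligible genes. Its strongest were fbxb-72 (289), fbxb-58 (253) and fbxa-202 (155). The member fbxl-2 (168) is outside this list by its symbol. In the thresholded list of replicate 1 the F-box and BTB list had 4, nuclear hormone receptors 1, chemoreceptors 0 and detoxification genes 0. In that of replicate 2 the F-box and BTB list had 2 and the other 3 families 0. All 22 lists together held 37 of 1712 eligible genes (2.16%), and eligible genes in no list held 194 of 8445 (2.30%), so most members lay at genes outside these lists. Of the downstream genes, 66 have only a sequence name.

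The same lists were counted for the gene on the upstream side of the gap, where 231 of 10152 genes (2.28%) had a member beyond their 3′ end. No limit was set on the distance past that end. Chaperones had 6 of 31 (19.4%): hsp-110, hsp-6, dnj-16, cct-6, dnj-20 and dnj-25. The dnj-16 and dnj-25 summits lay 335 and 568 bp past these genes but 45 and 108 bp from xbp-1 and ipla-3. The others lay 38 to 200 bp past their chaperone gene, though the dnj-20 summit, at 200 bp, was only 144 bp from hal-3. The dnj-25 site had a signal of 8.01 and no value in either library. The proteasome list had 3 of 14, pbs-2, rpn-3 and rpt-1, and synthetases had 2 of 17, aars-2 and nars-1. The rpt-1 site is the snr-4 one, with a signal of 6.58. The nars-1 summit lay 5752 bp past that gene and 238 bp from mstr-1. Ribosomal proteins had 3 of 38 on this side (7.89%), rpl-27, rpl-41.1 and rps-0. Zinc finger symbols had 2 of 16, trafficking genes 2 of 40, splicing genes 1 of 20, respiratory chain genes 1 of 20 and vacuolar ATPase genes 1 of 10. Other lists had 0: 27 translation factors, 39 mitochondrial ribosomal proteins, 32 chromatin regulators, 17 replication and cell cycle genes, 21 histones, 31 homeobox genes, 81 detoxification genes and 14 major sperm proteins. Chemoreceptors had 4 of 754, F-box and BTB genes 1 of 241, nuclear hormone receptors 1 of 150, C-type lectins 1 of 123 and collagens 1 of 67. For hsp-6 the list signal of 176 went with 54.8 in replicate 1 and 79.1 in replicate 2, and for pbs-2, which encodes a catalytic-core subunit of the proteasome, 195 at the tba-2 side went with 92.4 in replicate 1 and 105 in replicate 2. These sites count under both of their genes, and the data do not assign a site to either.

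A few members lay near short RNA genes, although tRNA genes had been kept at a distance by the rule. Within 200 bp of the summit, 8 members had a gene annotated as snoRNA, snRNA, miRNA, rRNA, lincRNA or tRNA. Besides egg-5, these included cmtr-1 (signal 182, 29 bp from a snoRNA gene), F59C6.18 (170.4, 58 bp from a snoRNA gene), cox-6A (146, 35 bp from an snRNA gene) and T02E1.2 (144, 48 bp from a snoRNA gene). The rest were rpl-11.2 (105, 143 bp from a lincRNA gene), fbxa-83 (99.1, 28 bp from a snoRNA gene) and snr-4 (6.58, 80 bp from an snRNA gene). The sites of cox-6A, rpl-11.2, fbxa-83 and snr-4 also count in the gene lists above. Whether the promoter or the short RNA gene was the bound element at these sites cannot be told apart.

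The sequence around the summits was compared with the flanks centred 400 bp to either side. Over 2064 6-base words, both strands taken as 1, ACGCAG and GACGCA had the largest excess, with an equal difference of 13.75 percentage points. ACGCAG was within 50 bp of 37 of 240 tandem promoter summits (15.4%, exact 95% interval 11.1 to 20.6%) and in 1.67% of their flanks. It was at 8.47% of the other summits, and at 9.30% of all summits of the list. In 7497 windows of the same length centred 287 bp upstream of eligible genes it was present in 2.55%. GACGCA was at 16.25% of tandem promoter summits, 8.08% of other summits and 2.59% of promoter windows.

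The other 3 words were ACGCGC, at 13.3% of tandem promoter summits and 6.33% of other summits, CGCGCC at 12.5% and 4.01%, and CGCAGA at 13.3% and 7.57%. In promoter windows they were present in 2.05%, 1.71% and 2.89%. The words overlap one another. Of the 5, 3 are shifts along GACGCAGA, which can be read in the windows of Y39B6A.43 and C34C12.8 above, and ACGCGC overlaps the remaining word by 5 bases. Since the words were picked on these same summits, their excess over the flanks is a description. A word is only letters in a window and not shown to be a site.

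Together the 5 words were present at 91 tandem promoter summits (37.9%), against 6.46% of flanks, 42.3% of divergent promoter summits, 14.4% of convergent summits and 8.10% of promoter windows. Tandem and divergent promoter summits thus lay near each other in this share, and convergent summits lay below both. The median GC content was 42.6% at tandem promoter summits, 36.6% in their flanks, 44.6% at other summits and 32.7% in promoter windows, and its part in the shares was not tested. ACGCAG was at 11.7% of the members among the 503 strongest peaks, 16.4% among the next 502, 27.1% among the following 502 and 2.70% among the weakest 503, so its share did not fall or rise steadily with strength. The windows of fil-2 and his-37, among the strongest sites, hold none of the 5 words. Of summits nearer the upstream 3′ end 12.9% had ACGCAG, and of those nearer the downstream 5′ end 17.7% did.

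The words were read on both strands of the downstream gene. ACGCGC was read along that gene at 21 summits and against it at 12, and CGCGCC along it at 21 and against it at 11. CGCAGA was the other way, along it at 13 and against it at 20. ACGCAG, at 18 along and 20 against, and GACGCA, at 20 along and 22 against, were near even, some summits holding both. No test was made of these differences. Members with CGCGCC had a median signal of 113 and those without it 89.3, whereas members with ACGCAG had 89.5 and those without it 92.3.

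**Figure D5:**
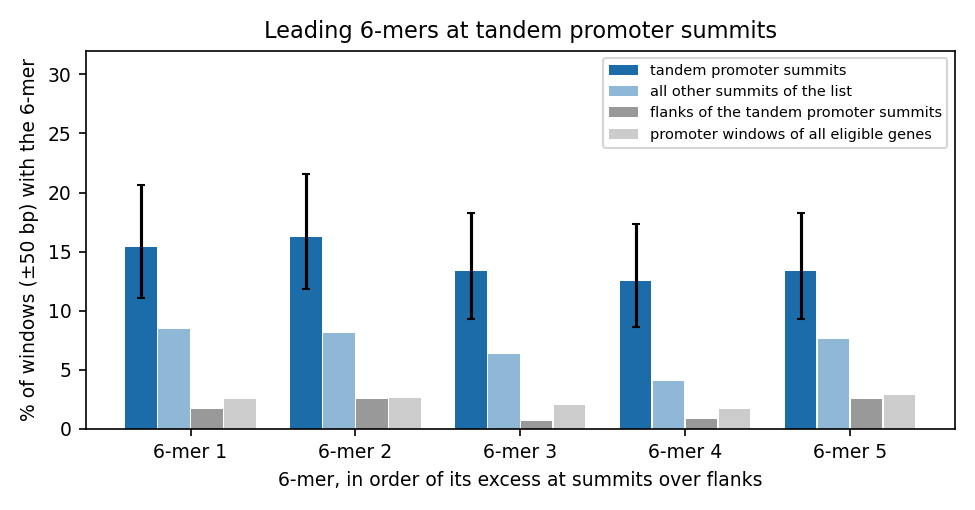
Percent of windows reaching 50 bp to either side that hold each of the 5 named words, in the order in which the text names them, at tandem promoter summits (with exact 95% binomial intervals), at all other summits of the list, in flanks of the tandem promoter summits and in promoter windows of eligible genes. Tandem promoter summits are at 12.5 to 16.25%, and their flanks at 2.5% or less.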

How the data were processed

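Peak lists of 2 ChIP-seq libraries, replicates 1 and 2 of 1 group, were analysed on ce11. Chromatin had been sonicated to 200 to 800 bp, per the labels. Per the notes deposited with the files, each list was derived from the alignments of its library or libraries and a further file common to all. Aligner and peak caller: not given in the sources used here. The signal of a peak is its strength as deposited by the authors, on a scale that is not given. The score is the scaled irreproducible discovery rate (IDR) deposited by the authors, at least 830 in the conservative list. The summit is an offset from the start of the peak, as deposited by the authors. The 2 ranked lists of the series hold 16 columns of values per library without sample names, which were not used.

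Summits were placed against Ensembl release 115 genes with Python 3.11.15, pandas 2.3.3, numpy 2.4.6 and scipy 1.17.1. A value per library is the strongest peak of its ranked list (43564 peaks in replicate 1, 43966 in replicate 2) that covers the summit, so neighbouring summits can share a value. Intervals are exact (Clopper-Pearson) 95% intervals. The placement was tested on 4000 simulated summits, of which 4000 received the right class.

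The members, gene lists (22, by symbol) and words were chosen with earlier results of these data known. The rule for named genes was the downstream genes of the 20 strongest members, up to 3 genes of highest signal per list, and the members nearest the 1000 bp limit. Further members of a list are named where their count is small, and those, the genes on the upstream side, the short RNA neighbours and lgg-1 were chosen after their values were seen. No test across peaks or genes was made.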

Additional observations from a re-analysis of the deposited data

How the results depend on the processing

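The single-library lists held 112 to 143 tandem promoter peaks, against 240. In them the ratio of median signal was 1.05 to 1.21, the median distance to the 5′ end 277.5 to 292 bp, the share with ACGCAG 16.1%, and the share nearer the upstream 3′ end 46.2 to 53.6%. The median distance of 287 bp became 299.5 bp in the other thresholded list, 235 bp with a window of 500 bp, 407 bp with one of 2000 bp and 265 bp in the stronger part of the list by signal. The share in both libraries, 35%, was 55.6% in that stronger part and 25.8% where the overlap had to cover at least 50% of both peaks. The share with ACGCAG was 9.58% within 25 bp and 22.5% within 100 bp of the summit. In gaps under 1600 bp, a choice made after seeing the data, 59.3% of summits were nearer the 3′ end. The other 39 values of these results moved by less than their spread or 1.5 times. Under these alternatives 46 gene list counts moved by more than 1.5 times, 15 to 20 of the 20 strongest members kept their gene, and the single-library values stand beside the lists. Peak lists without depth, an unstated signal scale and 2 libraries limit all comparisons. No paired analysis was possible because the samples form 1 group and no groups were compared.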

Other observations

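In 9 gaps the list held 2 members for the same gene. At fil-2 the summits lay 605 and 405 bp from the 5′ end, with signals of 460.0 and 97.0 in the same peak interval, and at fbxb-72 they lay 118 and 323 bp away, with 289 and 106. At K02A6.3 the signals were 127 and 3.06, and at F02E9.5 they were 96.4 and 12.1. Of the 240 members, 6 had a signal under 30, of 96 such peaks in the whole list. Of the 6, K02A6.3, let-607, F02E9.5 and Y105E8B.6 lay in a gap with a stronger member.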
